A study of Mus musculus with 24 samples.

Results

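Venus-positive cells of the ileum were compared directly with Venus-positive cells of the colon, over every gene counted. The members of the comparison were the 6 of 24 RNA libraries whose labels give the sort as GFP positive and the tissue as Ileum (3 libraries) or Colon (3 libraries). All came from mice of the strain labelled Guca2a-Venus, kept on standard chow, and their ages are not in the labels. In this line a bacterial artificial chromosome carries the yellow fluorescent protein Venus where the coding sequence of *Guca2a*, the gene of proguanylin, would lie, so that the guanylin promoter drives Venus. The line goes back to a single founder and was bred back to C57Bl6J mice. The ileum was the lowest stretch of the small intestine, and the colon group took in the whole colon and rectum. Epithelium was digested to single cells, with more EDTA for the colon, and sorted for Venus fluorescence after dead cells, debris without DNA and CD45-positive immune cells had been excluded. Digestion and region cannot be told apart. The 3 libraries of a group came from 3 mice, but the labels do not name the mouse of a library, and positive and negative cells were treated as unpaired. The 6 Venus-negative libraries of the same regions, sorted alongside, were the controls for whether a regional difference was larger or smaller in Venus-positive cells.

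Guanylin and uroguanylin are peptides of the gut epithelium that bind guanylate cyclase C on the luminal surface, raise cyclic GMP, and thereby favour chloride and bicarbonate secretion and restrain sodium absorption. The cells that make them differ along the gut: the small intestine carries villi of enterocytes that digest and take up nutrients, with Paneth cells at the crypt base, whereas the colon lacks villi and classical Paneth cells and is specialised in salt and water absorption behind a thick mucus layer. The ileum is in addition the site where bile acids and vitamin B12 are recovered. Because each library holds the RNA of a sorted mixture, a lower value can come from fewer cells of a type or from less RNA per cell, and these cannot be told apart.

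Promoters of genes on which the results turn are shown first, each as 300 bases of RefSeq on GRCm38.p6, from 250 before to 50 after the gene's start, 5′ to 3′ on the gene's own strand. *Fabp6*, the ileal bile acid binding protein, is a textbook target of the bile acid receptor FXR (chr11:43601513-43601812, reverse strand). Capitals mark an inverted repeat of the FXR type, AGGTNANTNACCT, found here as AGGTGAATAACCT from 142 bases before the start. The general pattern reads the same on both strands, but the match found here does not.
Fabp6: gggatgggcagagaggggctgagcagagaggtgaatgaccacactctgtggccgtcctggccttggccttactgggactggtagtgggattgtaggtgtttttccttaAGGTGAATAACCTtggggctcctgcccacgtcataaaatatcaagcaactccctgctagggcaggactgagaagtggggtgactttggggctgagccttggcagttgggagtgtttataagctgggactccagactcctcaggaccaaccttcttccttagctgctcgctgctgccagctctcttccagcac
The repeat was in the windows of 7 of 27025 genes (0.0259%), of 2 of the 10365 tested genes with a window, and of *Fabp6* alone among the 15 genes of the bile acid list with a window. *Defa21*, an alpha-defensin gene of Paneth cells, had the largest fold towards the ileum among genes with at least 10 colonic counts (chr8:21025295-21025594, forward strand). Capitals mark ATCAAAG, the core of TCF/LEF sites through which Wnt signals act, found from 112 and 72 bases before the start.
Defa21: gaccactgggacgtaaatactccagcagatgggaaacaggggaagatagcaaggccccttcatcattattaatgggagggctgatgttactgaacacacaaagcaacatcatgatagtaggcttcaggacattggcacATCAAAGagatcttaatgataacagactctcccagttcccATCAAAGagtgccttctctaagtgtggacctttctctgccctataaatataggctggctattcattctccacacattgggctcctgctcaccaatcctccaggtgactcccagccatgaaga
On either strand (CTTTGAT on the other) these letters were in 13 of 16 alpha-defensin windows (81.2%), against 4.29% of all 27025 windows and 3.17% of those of tested genes. The windows of *Defa21* and *Defa22* were identical over 300 of 300 bases. *Mptx1* and *Mptx2*, pentraxin genes of the mucosa, showed opposite regional patterns and have similar promoters (chr1:174330268-174330567, forward strand, and chr1:173277707-173278006, reverse strand). Capitals mark bases that are not identical between the pair or lie outside their alignment, which held 251 identical bases in 287 columns (87.5%).
Mptx1: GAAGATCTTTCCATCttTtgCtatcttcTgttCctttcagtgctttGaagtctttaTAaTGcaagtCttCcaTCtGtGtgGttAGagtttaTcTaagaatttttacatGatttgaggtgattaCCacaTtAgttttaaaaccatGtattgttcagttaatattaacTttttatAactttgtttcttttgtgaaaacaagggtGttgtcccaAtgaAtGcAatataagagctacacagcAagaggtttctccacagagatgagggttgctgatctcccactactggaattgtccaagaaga
Mptx2: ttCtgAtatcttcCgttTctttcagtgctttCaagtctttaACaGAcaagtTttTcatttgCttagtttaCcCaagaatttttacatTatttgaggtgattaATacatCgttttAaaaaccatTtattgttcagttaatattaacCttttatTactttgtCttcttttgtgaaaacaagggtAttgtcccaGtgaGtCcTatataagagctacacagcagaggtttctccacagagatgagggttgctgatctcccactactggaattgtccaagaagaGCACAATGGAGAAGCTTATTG
*Guca2a* and *Guca2b*, the genes of guanylin and uroguanylin, differed in opposite directions between the regions (chr4:119637482-119637781, forward strand, and chr4:119658896-119659195, reverse strand). Capitals mark the GATA letters AGATAA, on the other strand TTATCT, in *Guca2a* (from 144 and 120 bases before the start) and the HNF1 half-site GTTAAT, on the other strand ATTAAC, in *Guca2b* (from 33 bases before the start).
Guca2a: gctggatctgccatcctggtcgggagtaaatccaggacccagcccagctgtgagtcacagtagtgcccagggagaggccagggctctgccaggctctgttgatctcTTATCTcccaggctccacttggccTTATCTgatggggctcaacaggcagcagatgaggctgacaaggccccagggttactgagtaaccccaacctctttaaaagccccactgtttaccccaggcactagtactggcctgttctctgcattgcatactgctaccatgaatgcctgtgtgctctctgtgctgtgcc
Guca2b: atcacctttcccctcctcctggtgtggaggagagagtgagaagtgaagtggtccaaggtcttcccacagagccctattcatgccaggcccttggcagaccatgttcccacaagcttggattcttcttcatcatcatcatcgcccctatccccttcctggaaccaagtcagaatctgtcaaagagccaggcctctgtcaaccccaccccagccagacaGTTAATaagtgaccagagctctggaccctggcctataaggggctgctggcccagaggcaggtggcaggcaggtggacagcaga
The GATA letters were in 8.79% of the windows of genes higher in the ileum and 8.18% of those higher in the colon, against 8.2% of tested genes and 12.7% of all windows. The HNF1 letters were in 7.89%, 5.88%, 5.78% and 8.24% of the same sets. A match describes the letters in a window and is neither a binding site nor a cause.

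Between 10634367 and 14782152 reads were counted on genes in the ileal libraries and between 13954074 and 18403292 in the colonic libraries. Levels are given as normalised CPM, each gene's share of its library's counts after scaling by edgeR's TMM factors. Detection was limited to 3 counts, which corresponded to 0.162 to 0.221 normalised CPM in ileal and 0.194 to 0.232 in colonic libraries. The limit covers counting error only, because the reads were amplified and carry no molecular identifiers. Mitochondrial genes took 53.5%, 55.4% and 41.0% of the counts of the ileal libraries against 72.7%, 77.9% and 68.6% of the colonic ones, without overlap. Of 17 mitochondrial genes tested, 7 were higher in the colon and 0 in the ileum. With the fit restricted to protein-coding genes outside the mitochondria, 1571 genes were higher in the ileum against 1712 in the colon and the median log2 fold change was -0.15, beside -0.14 for all genes tested. With library size alone in place of TMM this median moved to 0.37. Counts on closely similar genes (the alpha-defensins, *Mptx1* and *Mptx2*, the Clca4, Cyp2c, Cyp3a and Gsdmc families) may be split between copies, and without a stated strand setting reads of a gene and of an antisense partner cannot be told apart.

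Positive cells of the ileum and colon differed in about as many genes in one direction as in the other. Of 15044 genes tested, 1608 (10.7%) were higher in the ileum and 1653 (11%) higher in the colon at an adjusted p of 0.05, together 21.7% (edgeR quasi-likelihood test, Benjamini-Hochberg adjustment over all genes tested). The split moved with the scaling, to 2825 and 763 with library size alone, and within the libraries of one i5 index, D502 (2 per region), it was 1812 and 1672. The other index had 1 library per region and gave no test. Leaving out 1 library gave 1085 to 1573 and 988 to 1681, the colonic count being 988 without ileal library 3, 999 without ileal library 2 and 1026 without colonic library 3. The 140 genes named here that were called all kept their direction and their call within D502. Among protein-coding genes that are not mitochondrial and had at least 10 counts in the lower group, the 12 largest folds towards the ileum belonged to alpha-defensins (*Defa21*, *Defa22*, *Defa29*, *Defa24*, *Defa30* and the family member *Gm14851*), the antimicrobial *Lyz1* and *Mptx2*, the brush-border genes *Anpep*, *Clca4b* and *Pdzk1*, and the apolipoprotein *Apoa1*. These folds ran from 199-fold to 540-fold. Towards the colon 11 of the 12 largest were *Mptx1* (538-fold), *Plet1* (309-fold), the sodium-calcium exchanger *Slc8a1* (147-fold), the cytochrome P450 *Cyp2d34* (135-fold), the sulfotransferase *Sult1a1* (123-fold), *Mfap3l* (118-fold), the sialyltransferase *St6galnac6* (103-fold), the lipid transporter *Abca12* (87.9-fold), the carbonic anhydrase *Car2* (87.2-fold), the peroxisomal oxidase *Hao2* (78.2-fold) and the chloride channel *Ano1* (74.2-fold). Several of these folds were larger without ileal library 1. The log2 fold change then went from -7.20 to -9.88 for *Slc8a1*, from -6.95 to -8.93 for *Sult1a1*, from -6.69 to -7.36 for *St6galnac6*, from -6.46 to -7.84 for *Abca12*, from -6.45 to -7.91 for *Car2*, from -6.29 to -8.0 for *Hao2* and from -6.21 to -6.89 for *Ano1*. Without colonic library 3 that of *Anpep* went from 8.49 to 9.11 and that of *Pdzk1* from 8.69 to 9.52. Ranked by mean level in the higher region, among genes at least 2-fold apart whose libraries did not overlap, the 6 leading genes of the ileum were *Reg3b*, *Anpep*, *Defa24*, *Apoa1*, *Fcgbp* and *Selenop*, and those of the colon were *Lypd8*, *Agr2*, *Cyp2c55*, *Car1*, *Dmbt1* and *Guca2a* itself. *Selenop*, which encodes the selenium transport protein of plasma, was at 1358, 3249 and 3719 normalised CPM in the ileal and 345, 502.2 and 328 in the colonic libraries (log2 fold change 2.82, standard error 0.40, adjusted p = 4.02e-06, edgeR). *Dmbt1*, a mucosal scavenger glycoprotein, was at 67.2, 84.5 and 56.2 normalised CPM in the ileal and 1090, 911 and 742 in the colonic libraries (log2 fold change -3.72, standard error 0.53, adjusted p = 4.02e-06, edgeR). Neither gene overlapped between the regions, which the ranking required. Of the 1608 genes called higher in the ileum 1533 did not overlap, and of the 1653 higher in the colon 1618 did not, so absence of overlap adds little to a call.

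**Figure D1:**
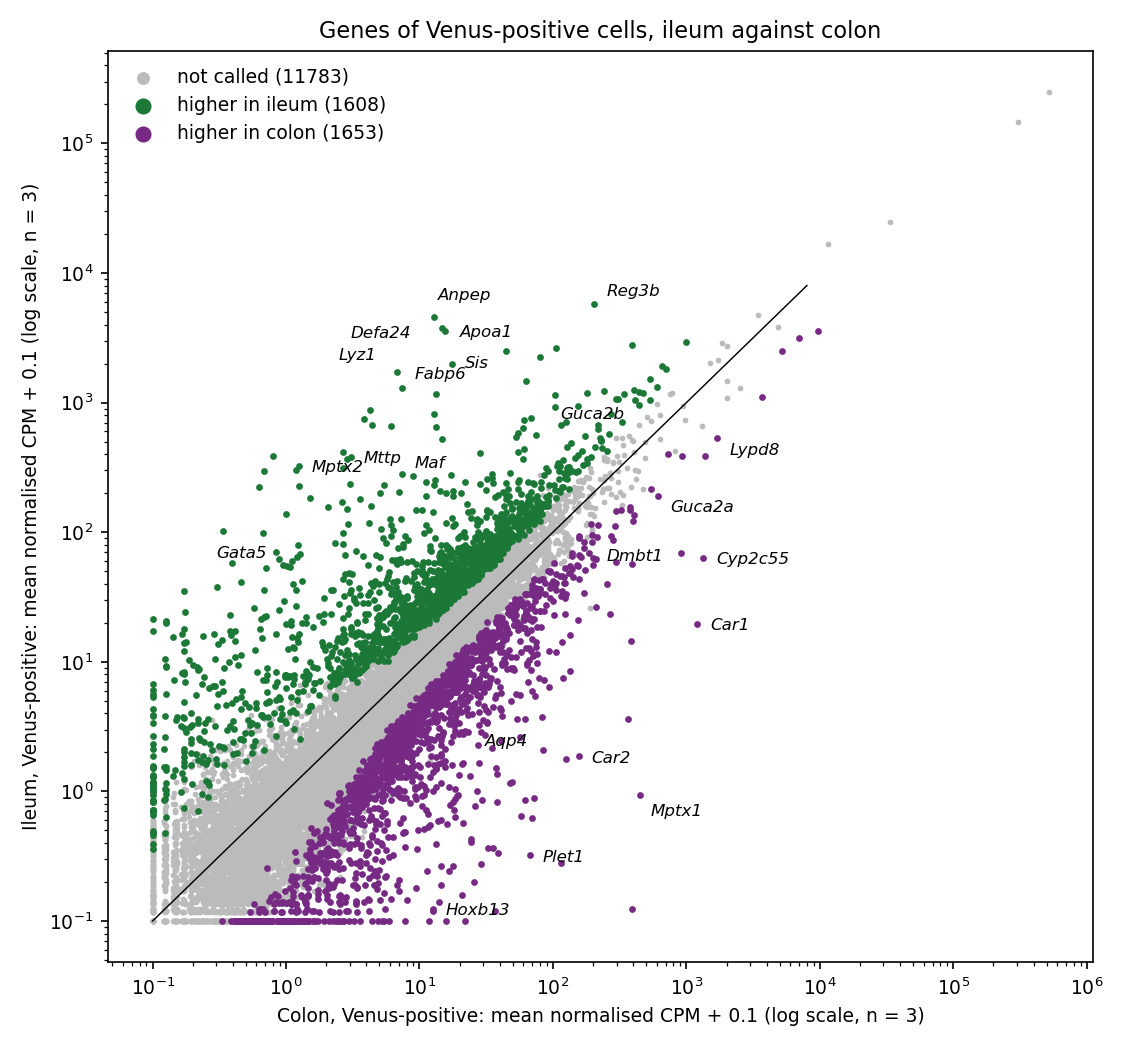
Mean normalised CPM of each tested gene in Venus-positive cells of the colon (x axis) and ileum (y axis), both on log scales after adding 0.1, 3 libraries each, with genes past an adjusted p of 0.05 (edgeR) coloured by the region in which they were higher. The 1608 genes higher in the ileum lie above the diagonal and the 1653 higher in the colon below it, with the defensins and *Mptx1* at the margins.

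The genes of the hormone pair differed in opposite directions. *Guca2a* (chromosome 4, 119637704 to 119639471, forward strand) was at 221, 161 and 191 normalised CPM in the ileal and 516, 613 and 706.9 in the colonic libraries, 3.21-fold higher in the colon (log2 fold change -1.68, standard error 0.33, adjusted p = 3.41e-04, edgeR). Every colonic library lay above every ileal library, which its place in the ranking by mean level required. *Guca2b* (chromosome 4, 119656607 to 119658954, reverse strand) went the other way, at 392, 437 and 715 normalised CPM in the ileal and 219, 215 and 259 in the colonic libraries, 2.23-fold higher in the ileum (log2 fold change 1.16, standard error 0.30, adjusted p = 0.00629, edgeR). Again the regions did not overlap, but without ileal library 3, the highest, the adjusted p of *Guca2b* was 0.0814 with a log2 fold change of 0.84. The counts do not separate *Guca2a* transcripts of the gene from those of the transgene. The receptor gene *Gucy2c* was at 106, 119 and 138 normalised CPM in the ileal and 107, 123 and 85.8 in the colonic libraries, with overlapping regions (log2 fold change 0.20, adjusted p = 0.621, edgeR).

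Downstream of the receptor, *Pde5a*, which degrades cyclic GMP, was at 96.3, 95.9 and 118 normalised CPM in the ileal and 37.2, 53.7 and 49.8 in the colonic libraries, 2.20-fold higher in the ileum (adjusted p = 6.25e-04, edgeR). *Slc9a3*, the sodium-hydrogen exchanger NHE3 that cyclic GMP inhibits, was at 6.19, 14.8 and 13.3 normalised CPM in the ileal and 106, 83.3 and 39.2 in the colonic libraries, 6.68-fold higher in the colon (adjusted p = 9.24e-04, edgeR). Its colonic libraries were spread widely but all lay above the ileal libraries. Scaffolds that hold such transporters at the apical membrane were called in both directions. *Slc9a3r1* (NHERF1) was at 460, 914 and 751 normalised CPM in the ileal and 112, 162 and 100 in the colonic libraries (5.67-fold). *Pdzk1* was at 185, 243 and 245 normalised CPM in the ileal and 0.386, 0.212 and 0.968 in the colonic libraries (414-fold), both higher in the ileum. Without colonic library 3 the log2 fold change of *Pdzk1* went from 8.69 to 9.52. *Slc9a3r2* (NHERF2) was higher in the colon, at 0.108, 0 and 0 normalised CPM in the ileal and 3.63, 3.47 and 2.58 in the colonic libraries, with 2 ileal counts and a ratio of 78.0 (95% counting interval 21.2 to 651) and an adjusted p of 0.0115 (edgeR), a call lost without ileal library 2 (log2 fold change -5.59) or ileal library 3 (-5.67). Without ileal library 1, which held its ileal counts, the value was -8.60, fitted against 0 counts and no measure of size. *Slc26a6*, an apical chloride-bicarbonate exchanger, was at 27.7, 39.5 and 45.1 normalised CPM in the ileal and 0, 0.283 and 0.323 in the colonic libraries, the colonic values resting on 9 counts in all. The largest adjusted p of *Slc9a3r1*, *Pdzk1* and *Slc26a6* was 6.25e-06 (edgeR). Of the 13 tested genes of the guanylin pathway list, 5 were higher in the ileum, 4 were higher in the colon and 4 did not pass the threshold, with a median log2 fold change of 0.20 beside -0.14 for all genes tested. The list median was -0.31 without ileal library 1. With library size alone it was 0.73, beside 0.37 for all genes tested. The shares over all genes tested were 10.7% higher in the ileum and 11% in the colon.

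**Figure D2:**
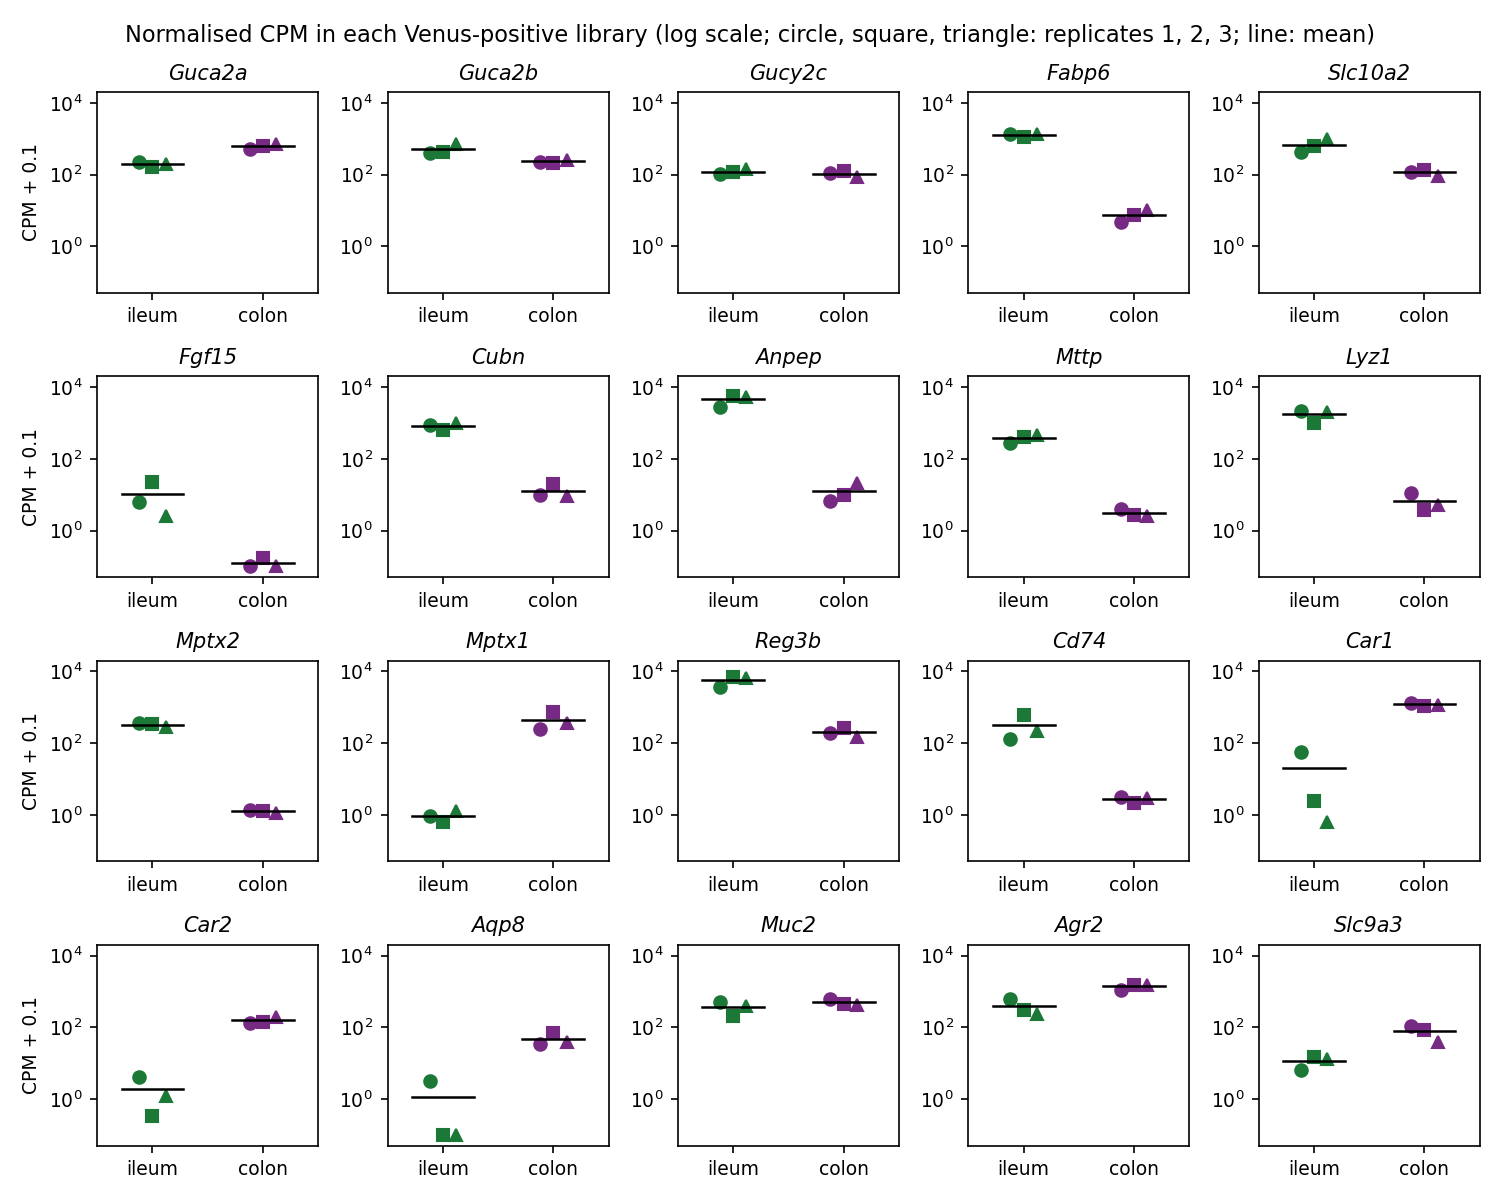
Normalised CPM plus 0.1 (log axis) of 20 genes in each Venus-positive library of the ileum and colon, one point per library, 3 per region, with horizontal marks at the group means. *Guca2a* is higher and *Guca2b* lower in the 3 colonic libraries, and the ileal library 1 stands apart for *Car1* at 56.0 against 2.34 and 0.515.

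In bile acid recovery, the apical transporter, the binding protein and the subunits of the basolateral exporter OST were each higher in the ileum. The pump gene *Abcc3* went the other way. *Slc10a2*, the apical bile acid transporter ASBT, was at 436, 636 and 953 normalised CPM in the ileal and 118, 136 and 91.4 in the colonic libraries, 5.87-fold higher in the ileum (adjusted p = 2.86e-04, edgeR). *Fabp6*, whose promoter is printed here, was at 1373, 1141 and 1391 normalised CPM in the ileal and 4.56, 7.15 and 10.1 in the colonic libraries (179-fold, adjusted p = 8.74e-09, edgeR). The regions were far apart, the 3 ileal libraries lying close together. The subunits of the basolateral exporter OST followed: *Slc51a* was at 220, 252 and 306 normalised CPM in the ileal and 28, 39.6 and 27.4 in the colonic libraries (8.19-fold), and *Slc51b* at 156, 356 and 331 normalised CPM in the ileal and 21.9, 52.9 and 29.1 in the colonic libraries (8.11-fold), with adjusted p values of 4.62e-07 and 1.80e-05 (edgeR). *Nr1h4*, the gene of FXR, was at 84.1, 72.9 and 80.4 normalised CPM in the ileal and 42.9, 43.1 and 31.6 in the colonic libraries, 2.02-fold higher in the ileum (adjusted p = 0.00844, edgeR), but without colonic library 3 its log2 fold change of 0.88 missed the threshold (adjusted p = 0.0632, edgeR). *Fgf15*, the hormone by which FXR in the ileum restrains hepatic bile acid synthesis, was at 6.08, 23.0 and 2.43 normalised CPM in the ileum, while the colon had a single count in 3 libraries. The ratio of the pooled levels was 460 (95% counting interval 82.3 to 18217). The fitted log2 fold change of *Fgf15*, 8.37, was 7.07 without ileal library 2 and 10.31 without colonic library 2, which held the single count. The apical and basolateral conjugate pumps were split. *Abcc2* (MRP2) was at 91.1, 46.9 and 64.9 normalised CPM in the ileal and 1.24, 1.49 and 0.775 in the colonic libraries (57.9-fold higher in the ileum). *Abcc3* (MRP3) was at 28, 17.6 and 24.6 normalised CPM in the ileal and 134, 139 and 99.0 in the colonic libraries (5.29-fold higher in the colon), with adjusted p values of 8.54e-12 and 9.44e-07 (edgeR). Of 15 tested genes of the bile acid list, 10 were higher in the ileum, 1 was higher in the colon and 4 did not pass the threshold (median log2 fold change 1.04). All genes tested had shares of 10.7% higher in the ileum and 11% in the colon.

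Genes of vitamin B12 handling were called in both directions. The luminal receptor of the intrinsic factor complex, cubam, has the subunits *Cubn* and *Amn*. *Cubn* was at 878, 627 and 969 normalised CPM in the ileal and 9.58, 19.7 and 8.78 in the colonic libraries (64.9-fold higher in the ileum). *Amn* was at 32.1, 50.5 and 63.5 normalised CPM in the ileal and 8.58, 9.98 and 8.59 in the colonic libraries (5.37-fold). No library of one region reached the range of the other in either gene. *Tcn2*, the plasma carrier that takes the vitamin onward, was at 79.6, 125 and 140 normalised CPM in the ileal and 18, 17.9 and 18.7 in the colonic libraries, 6.29-fold higher in the ileum. The colon had more of *Cd320*, the cellular receptor for carrier-bound vitamin, at 0.323, 0.0601 and 0.221 normalised CPM in the ileal and 4.71, 3.47 and 5.42 in the colonic libraries (21.5-fold), and of *Abcc1*, an exporter of the free vitamin, at 1.78, 0.601 and 0.588 normalised CPM in the ileal and 19.9, 12.7 and 17.2 in the colonic libraries (16.3-fold; log2 fold change -4.03, and -4.78 without ileal library 1). *Mmachc*, which processes the vitamin in the cytosol, was at 0.538, 0 and 0 normalised CPM in the ileal and 3.63, 2.41 and 3.74 in the colonic libraries (16.2-fold higher in the colon, adjusted p = 0.00118, edgeR), with every ileal count in library 1, and without that library its log2 fold change of -4.01 was -8.61, a fitted value against 0 counts. The other 5 genes had adjusted p values from 4.46e-10 for *Cubn* to 1.95e-04 for *Amn* (edgeR). Of 9 tested genes of the B12 and folate list, 3 were higher in the ileum, 3 were higher in the colon and 3 did not pass the threshold, with a median log2 fold change of 0.04 that is negative without some single libraries. By comparison, 10.7% of all genes tested were higher in the ileum and 11% in the colon.

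Digestive enzymes of the brush border were nearly all higher in the ileum. Of 21 tested, 19 were higher in the ileum, 0 were higher in the colon and 2 did not pass the threshold, with a median log2 fold change of 5.45. The disaccharidase gene *Sis* was at 2511, 1236 and 2183 normalised CPM in the ileal and 18.5, 17.1 and 16.4 in the colonic libraries (114-fold). Its relative *Mgam* was at 2133, 1861 and 2704 normalised CPM in the ileal and 82.8, 80.6 and 76.5 in the colonic libraries (27.9-fold). In both genes the lowest ileal library lay far above the highest colonic library. Among the peptidases, *Anpep* was at 2707, 5733 and 5290 normalised CPM in the ileal and 6.65, 9.84 and 21.6 in the colonic libraries (359-fold, a log2 fold change of 8.49 that was 9.11 without colonic library 3), *Enpep* at 832, 1257 and 1430 normalised CPM in the ileal and 11.2, 14.1 and 14.7 in the colonic libraries (87.9-fold) and *Dpp4* at 409, 746 and 802 normalised CPM in the ileal and 12.2, 10.8 and 16.9 in the colonic libraries (49.0-fold). *Naaladl1*, an ileal peptidase, was at 1071, 1506 and 1814 normalised CPM in the ileal and 65.8, 76.7 and 44.3 in the colonic libraries (23.5-fold). *Clca4b*, of the CLCA family, was at 277, 1028 and 1305 normalised CPM in the ileal and 4.02, 3.54 and 4.84 in the colonic libraries (210-fold). In 5 of these 7 genes ileal library 1 was the lowest of the ileum, whereas *Sis* was highest there and *Mgam* was lowest in library 2. The largest adjusted p of these 7 genes was 5.90e-10, that of *Naaladl1* (edgeR). The structural genes of microvilli changed less. Of 14 tested, 12 were higher in the ileum, 1 was higher in the colon and 1 did not pass the threshold (median 1.66). *Vil1*, which bundles actin in microvilli, was at 884, 1376 and 1318 normalised CPM in the ileal and 179, 202 and 159 in the colonic libraries (6.62-fold, adjusted p = 6.40e-08, edgeR). The motor *Myo1a* was at 828, 1063 and 945 normalised CPM in the ileal and 145, 173 and 144 in the colonic libraries (6.15-fold). The member higher in the colon was the cadherin *Cdhr1*, with no count in the ileum and 5.33, 3.11 and 1.94 normalised CPM in the colon, at least 15.7-fold higher in the colon (the floor being 3 counts per library, the largest of the 3 ileal floors).

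Transporters of sugars, peptides and amino acids had 17 of 22 tested genes higher in the ileum, 2 higher in the colon and a median log2 fold change of 3.85. Shares over all genes tested were 10.7% and 11%. The sodium-glucose transporter *Slc5a1* (SGLT1) was at 636, 703.7 and 878 normalised CPM in the ileal and 64.1, 56.7 and 60.4 in the colonic libraries (12.2-fold). The peptide transporter *Slc15a1* (PEPT1) was at 177, 250 and 325 normalised CPM in the ileal and 11.6, 13.4 and 14 in the colonic libraries (19.3-fold). *Slc6a19* (B0AT1), for neutral amino acids, was at 78.2, 270 and 338 normalised CPM in the ileal and 0.618, 1.06 and 1.74 in the colonic libraries (196-fold), ileal library 1 being the lowest. Adjusted p values of the 3 genes were at most 1.00e-08 (edgeR). The 2 members higher in the colon were *Slc6a14*, which takes up neutral and cationic amino acids, and the glutamine transporter *Slc1a5*. *Slc6a14* was at 11.2, 48.9 and 19.3 normalised CPM in the ileal and 207, 212 and 210 in the colonic libraries (7.91-fold, adjusted p = 7.54e-06, edgeR). *Slc1a5* was at 6.78, 6.01 and 3.53 normalised CPM in the ileal and 26.0, 21 and 20.2 in the colonic libraries (4.09-fold, adjusted p = 2.58e-05, edgeR). Neither gene's regions overlapped, and without ileal library 2 the log2 fold change of *Slc6a14* went from -2.98 to -3.78.

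Fat handling was also shifted to the ileum, where 17 of 22 tested genes of fat absorption and chylomicron assembly were higher and 1 was lower (median log2 fold change 3.34). Among all genes tested, 10.7% were higher in the ileum and 11% lower. The chylomicron proteins *Apoa1* and *Apob* were at 1633, 4086 and 4987 normalised CPM in the ileal and 13.1, 12.2 and 20.9 in the colonic libraries (231-fold), and at 1124, 2858 and 3894 normalised CPM in the ileal and 96.0, 142 and 77.0 in the colonic libraries (25-fold), respectively. *Mttp*, which loads lipid onto apolipoprotein B, was at 281, 393 and 472 normalised CPM in the ileal and 3.79, 2.69 and 2.45 in the colonic libraries (128-fold). The first ileal library had the lowest value for each, and still lay far above the colon. The cholesterol transporter *Npc1l1* was at 192, 506 and 552 normalised CPM in the ileal and 2.40, 2.90 and 2.39 in the colonic libraries (162-fold). *Soat2*, which esterifies the cholesterol taken up, was at 33.3, 44.6 and 44.9 normalised CPM in the ileal and 0.386, 0.425 and 0.258 in the colonic libraries (113-fold). The largest adjusted p of the 5 genes was 4.72e-09 for *Apob* (edgeR).

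Fatty acid oxidation and ketone production showed the opposite sign in fewer genes. Of 24 tested, 2 were higher in the ileum, 10 were higher in the colon and 12 did not pass the threshold (median -0.45), and with library size alone these were 4 and 5 and the median turned to 0.04. In the main fit 10.7% of all genes tested were higher in the ileum and 11% in the colon. *Pdk4*, which holds back glucose oxidation, was at 0.538, 0.240 and 0.736 normalised CPM in the ileal and 6.34, 25 and 11.5 in the colonic libraries (28.2-fold higher in the colon, adjusted p = 2.31e-05, edgeR), its log2 fold change going from -4.82 to -4.17 without colonic library 2. *Pparg*, a lipid-sensing receptor of the colonic epithelium, was at 3.34, 1.68 and 1.54 normalised CPM in the ileal and 36.6, 25.8 and 19 in the colonic libraries (12.3-fold, adjusted p = 2.92e-07, edgeR). *Slc16a1* (MCT1), a carrier of butyrate and other monocarboxylates, was at 21.7, 21 and 31.0 normalised CPM in the ileal and 74.9, 77.2 and 104 in the colonic libraries (3.48-fold, adjusted p = 2.56e-04, edgeR). These 3 genes were higher in each colonic than in each ileal library.

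Genes of colonic salt and water transport were higher in the colon for 14 of 28 tested, higher in the ileum for 3, and had a median log2 fold change of -1.51. For all genes tested the shares were 11% higher in the colon and 10.7% in the ileum. The carbonic anhydrases that supply proton and bicarbonate for sodium chloride uptake stood out in the raw levels. *Car1* was at 56.0, 2.34 and 0.515 normalised CPM in the ileal and 1347, 1108 and 1174 in the colonic libraries (61.3-fold), and *Car2* at 3.93, 0.240 and 1.10 normalised CPM in the ileal and 134, 140 and 197 in the colonic libraries (87.2-fold). Most of the ileal *Car1* was in library 1, and without that library the log2 fold change went from -5.94 to -9.68, and that of *Car2* from -6.45 to -7.91. The same library held every ileal count of the water channel *Aqp8*, which was at 3.18, 0 and 0 normalised CPM in the ileal and 33.8, 69.9 and 38 in the colonic libraries, and without it the log2 fold change of -5.41 became -12.46, a fitted value against 0 counts that is no measure of size. Another water channel, *Aqp4*, was at 1.83, 1.86 and 2.21 normalised CPM in the ileal and 75.9, 85.7 and 91.7 in the colonic libraries (42.9-fold). The ileal libraries lay close together for *Aqp4*. The aquaglyceroporin *Aqp7* went the other way, at 4.15, 6.37 and 11 normalised CPM in the ileum against 2 counts over the colon, a ratio of 145 (95% counting interval 39.9 to 1204).

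Sodium and acid transport of the colon included *Scnn1a*, a subunit of the sodium channel ENaC, at 12.1, 5.23 and 4.27 normalised CPM in the ileal and 41.7, 35.2 and 24.9 in the colonic libraries (4.69-fold, adjusted p = 4.98e-04, edgeR), its log2 fold change going from -2.23 to -2.83 without ileal library 1. *Hsd11b2*, which keeps glucocorticoids from the aldosterone receptor, was at 5.01, 4.39 and 2.65 normalised CPM in the ileal and 35.7, 26.1 and 35.1 in the colonic libraries (8.0-fold, adjusted p = 0.00119, edgeR). *Atp12a*, the colonic proton-potassium pump, had 2 counts over the 3 ileal libraries against 14.1, 8.21 and 19 normalised CPM in colonic ones, where the pooled level was higher by a ratio of 340 (95% counting interval 93.7 to 2815). Both ileal counts were in library 2, without which the fitted log2 fold change went from -8.13 to -10.70. The chloride-bicarbonate exchanger *Slc26a3* (DRA) was at 43.6, 29.5 and 31.7 normalised CPM in the ileal and 129, 96.3 and 125 in the colonic libraries (3.34-fold, adjusted p = 0.00149, edgeR). The basolateral bicarbonate cotransporter *Slc4a4* was 2.22-fold higher in the ileum, at 103, 125 and 131 normalised CPM in the ileal and 62.3, 50.4 and 49.4 in the colonic libraries (adjusted p = 0.00111, edgeR). None of these genes overlapped between the regions.

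Hox genes, whose nested expression sets position along the body axis, were higher in the colon where they were called: of 20 of the 39 genes that passed the filter on low counts, 0 were higher in the ileum, 11 higher in the colon and 9 did not pass the threshold. The filter favours genes that are present in at least 1 group, so these are not all Hox genes, and the median log2 fold change of -3.94 became -1.97 with 7 genes at 0 counts in one region set to their bounds. That fitted median was -5.03 without ileal library 1, -2.61 with index D502 alone and -2.58 with the compared groups alone, and DESeq2 called 8 of the genes. In the main fit, 10.7% of all genes tested were higher in the ileum and 11% in the colon. *Hoxa3* and *Hoxa7* had no count in any ileal library and 5.41, 4.03 and 5.94, and 7.03, 4.25 and 6.0 normalised CPM in the colon, at least 23.2-fold and 26.1-fold higher. *Hoxb13*, a gene of the most posterior group, had 1 ileal count and 5.80, 8.07 and 24.1 normalised CPM in the colon, a ratio of 645 (95% counting interval 115 to 25504). Its fitted log2 fold change of -8.77 was -7.90 without colonic library 3, the highest, and -10.59 without ileal library 3, which held the ileal count. *Hoxa13*, of the same posterior group, was at 0.0538, 0.120 and 0.221 normalised CPM in the ileal and 3.94, 4.25 and 2.58 in the colonic libraries (26.5-fold, adjusted p = 0.00378, edgeR). *Hoxb6* was present in both regions, at 6.57, 4.81 and 8.83 normalised CPM in the ileal and 11.3, 12.7 and 10.3 in the colonic libraries (log2 fold change -0.76, adjusted p = 0.341, edgeR).

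Of 30 other regional transcription factors tested, 10 were higher in the ileum (10.7% of all genes tested were), 2 in the colon (11%) and 18 missed the threshold. Their median log2 fold change was 0.26. *Gata5*, of the GATA family that marks small intestinal identity, was at 44.7, 79.7 and 38.4 normalised CPM in the ileal and 0.309, 1.42 and 1.03 in the colonic libraries (57.9-fold). *Maf* (c-MAF), a regulator of enterocyte genes, was at 314, 258 and 268 normalised CPM in the ileal and 7.49, 6.16 and 8.20 in the colonic libraries (38.4-fold). *Hnf4g*, a nuclear receptor of differentiated enterocytes, was at 166, 167 and 234 normalised CPM in the ileal and 15.1, 8.99 and 8.78 in the colonic libraries (17.3-fold). Its partner *Hnf4a* was at 277, 583 and 508 normalised CPM in the ileal and 184, 253 and 177 in the colonic libraries (2.23-fold). *Tbx3* was at 205, 230 and 190 normalised CPM in the ileal and 19, 18.8 and 15.1 in the colonic libraries (11.8-fold). The largest adjusted p of the 5 genes was 0.00378 for *Hnf4a* (edgeR), and its regions were also the closest to each other, the lowest ileal value being 277 and the highest colonic value 253. Higher in the colon was the epithelial ETS factor *Ehf*, at 38, 25 and 25 normalised CPM in the ileal and 99.8, 105 and 93.5 in the colonic libraries (3.38-fold, adjusted p = 4.15e-05, edgeR). It was present in both regions without overlap.

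**Figure D3:**
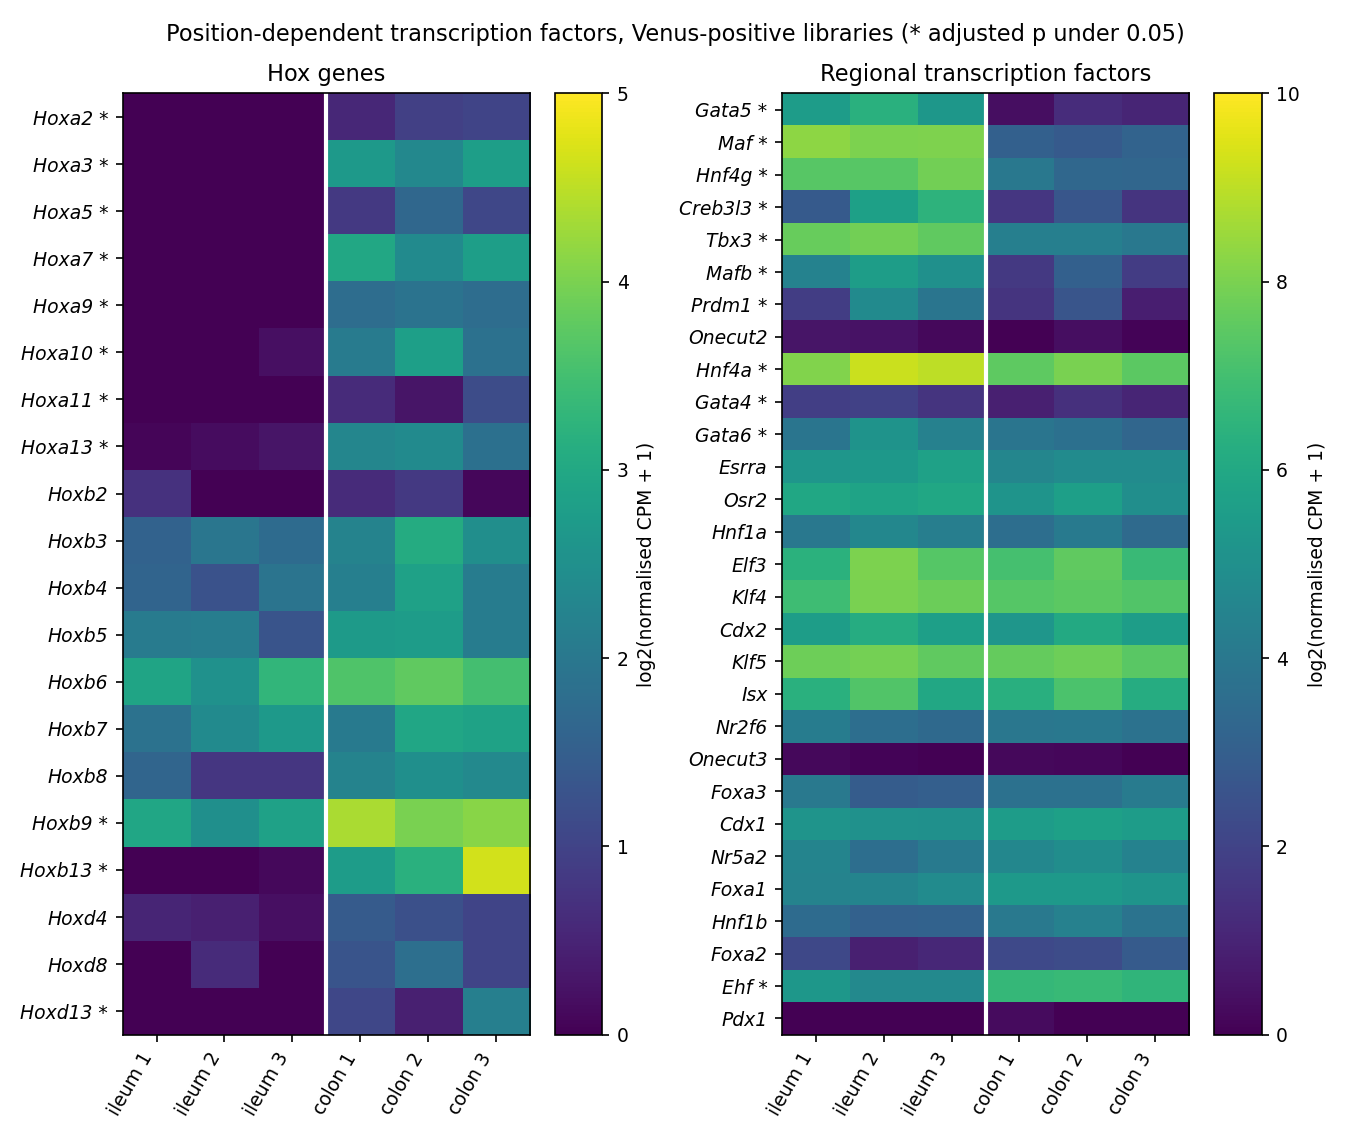
Log2 of normalised CPM plus 1 of Hox genes and of regional transcription factors (lines) in the 6 Venus-positive libraries (columns), with lighter colours for higher levels and a star at genes past an adjusted p of 0.05 (edgeR). *Hoxa3* and *Hoxa7* have no count in the ileum, and *Gata5* and *Maf* are far higher in the 3 ileal than in the 3 colonic libraries, at 38.4 to 79.7 and 258 to 314 normalised CPM.

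Paneth cell products were far higher in the ileum. Of 21 tested genes of the antimicrobial list, 15 were higher in the ileum, 2 were higher in the colon and 4 did not pass the threshold, with a median log2 fold change of 6.77 (5.95 with genes at 0 in one region set to their bounds). For all genes tested these shares were 10.7% towards the ileum and 11% towards the colon. *Lyz1*, the lysozyme of Paneth cells, was at 2101, 1016 and 2043 normalised CPM in the ileal and 11, 3.68 and 5.16 in the colonic libraries (260-fold). Among the alpha-defensins, *Defa24* was at 5837, 2266 and 3262 normalised CPM in the ileal and 23.3, 9.34 and 11.1 in the colonic libraries (260-fold), *Defa21* at 588, 228 and 339 normalised CPM in the ileal and 0.464, 1.13 and 0.516 in the colonic libraries (540-fold) and *Defa22*, whose promoter window has the same letters, at 441, 166 and 286 normalised CPM in the ileal and 0.464, 0.637 and 0.645 in the colonic libraries. Library 1 was the highest and library 2 the lowest of the ileum in each of these 4 genes. The same order held for *Defa29* (151, 62.2 and 91.9 normalised CPM in the ileum), *Gm14851* (463, 195 and 246) and *Defa30* (1125, 476 and 630). *Mmp7*, which activates pro-defensins, was at 140, 97.9 and 111 normalised CPM in the ileal and 1.85, 2.12 and 4.52 in the colonic libraries (40.7-fold). The lectin *Itln1* was at 718, 320 and 937 normalised CPM in the ileal and 6.49, 7.86 and 3.74 in the colonic libraries (109-fold). The largest adjusted p of these genes was 1.92e-06 for *Itln1* (edgeR). *Ang4*, an antimicrobial ribonuclease, was at 392, 206 and 232 normalised CPM in the ileal and 46.2, 177 and 18.1 in the colonic libraries. No colonic library reached the ileum, but library 2 came close, and the log2 fold change of 1.78 missed the threshold (adjusted p = 0.148, edgeR) and was 3.07 without that library (adjusted p = 0.0352, edgeR).

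The pair of mucosal pentraxins was exchanged between the regions. *Mptx2* (chromosome 1, 173274382 to 173277777, reverse strand) was at 357, 329 and 288 normalised CPM in the ileal and 1.24, 1.2 and 1.03 in the colonic libraries, 279-fold higher in the ileum (adjusted p = 1.36e-08, edgeR). *Mptx1* (chromosome 1, 174330518 to 174332873, forward strand) was at 0.808, 0.541 and 1.18 normalised CPM in the ileal and 253, 750 and 351 in the colonic libraries, 538-fold higher in the colon (adjusted p = 2.97e-08, edgeR). The opposite directions stand beside promoter windows of 87.5% identity. The other member of the antimicrobial list higher in the colon was the stress-response gene *Nupr1*, at 11, 8.35 and 6.25 normalised CPM in the ileal and 73.6, 66.6 and 66.4 in the colonic libraries (8.05-fold, adjusted p = 3.79e-04, edgeR). Of 10 genes of the deep crypt secretory cells that stand in for Paneth cells in the colon, 2 were higher in the ileum, 2 were higher in the colon and 6 did not pass the threshold (median -0.77). The shares of all genes tested were 10.7% higher in the ileum and 11% in the colon. Without ileal library 1 the members higher in the colon were 4 (median -1.43), and with index D502 alone 5 (median -1.49). With library size alone 4 were higher in the ileum and 2 in the colon (median -0.25). The surface antigen *Cd24a* was at 37.6, 27.4 and 36.2 normalised CPM in the ileal and 157, 161 and 194 in the colonic libraries (5.06-fold higher in the colon, adjusted p = 2.43e-04, edgeR). The receptor tyrosine kinase *Kit* was at 8.78, 8.29 and 3.97 normalised CPM in the ileal and 24.6, 23.9 and 28.3 in the colonic libraries (3.63-fold higher in the colon). Its adjusted p was 0.00889 (edgeR), a call lost without ileal library 3 (log2 fold change -1.58). The members higher in the ileum were *Dll4* and *Tm4sf4*. The Notch ligand *Dll4* was at 9.58, 16.9 and 15.1 normalised CPM in the ileal and 2.86, 3.40 and 4.00 in the colonic libraries (4.03-fold). *Tm4sf4*, a tetraspan membrane protein, was at 31.3, 13.0 and 19.6 normalised CPM in the ileal and 0.618, 0.142 and 0.904 in the colonic libraries (37.5-fold).

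Goblet cell genes divided within the group. Of 27 tested genes of the mucus layer, 5 were higher in the ileum, 9 were higher in the colon and 13 did not pass the threshold (median -0.84). Calls over all genes tested made up 10.7% towards the ileum and 11% towards the colon. The list median was -0.33 with library size alone and -1.18 without ileal library 1. The gel-forming mucin *Muc2* was at 516, 206 and 397 normalised CPM in the ileal and 623, 434 and 415 in the colonic libraries, with overlapping regions (log2 fold change -0.39, adjusted p = 0.531, edgeR, and 0.14 with library size alone). *Clca1*, a protease that processes the mucus, overlapped as well, at 1712, 741 and 1017 normalised CPM in the ileal and 903, 702.1 and 659 in the colonic libraries (log2 fold change 0.62, adjusted p = 0.296, edgeR). Of secreted mucus proteins, 3 are given here that were higher in the ileum. *Fcgbp* was at 4197, 1624 and 2929 normalised CPM in the ileal and 1252, 696 and 1033 in the colonic libraries (2.93-fold, adjusted p = 0.00774, edgeR), a call lost without ileal library 1 (log2 fold change 1.2) or colonic library 2 (1.32). The lectin *Zg16* was at 1687, 780 and 1018 normalised CPM in the ileal and 310, 193 and 512 in the colonic libraries (3.43-fold). The trefoil peptide *Tff3* was at 663, 331 and 364 normalised CPM in the ileal and 121, 68.8 and 194 in the colonic libraries (3.53-fold), with adjusted p values of 0.00167 and 7.06e-04 (edgeR). Members higher in the colon included the next 3. *Agr2*, a disulfide isomerase needed for MUC2, was at 614, 304 and 240 normalised CPM in the ileal and 1108, 1517 and 1546 in the colonic libraries (3.60-fold), the goblet cell factor *Spdef* at 10.4, 6.01 and 3.24 normalised CPM in the ileal and 24.3, 26.8 and 23.8 in the colonic libraries (3.79-fold) and *Creb3l1*, a factor of the secretory pathway, at 18.9, 13.1 and 9.93 normalised CPM in the ileal and 78.8, 73.3 and 71.6 in the colonic libraries (5.32-fold). The regions did not overlap for these 3 genes, whose adjusted p values were 0.00107, 0.00169 and 2.46e-07 (edgeR).

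Further mucus genes followed either region. *Klk1*, a secreted kallikrein, was at 17.0, 7.99 and 10.4 normalised CPM in the ileal and 99.6, 75.7 and 144 in the colonic libraries (9.01-fold higher in the colon, adjusted p = 2.63e-05, edgeR). The membrane mucin *Muc4* was at 12.1, 8.35 and 8.68 normalised CPM in the ileal and 81.7, 75.9 and 70.1 in the colonic libraries (7.80-fold higher in the colon). *Muc13*, which lines the apical membrane, was at 708.1, 1819 and 2000 normalised CPM in the ileal and 530, 614 and 468 in the colonic libraries (2.81-fold higher in the ileum), with adjusted p values of 9.54e-07 and 0.00227 (edgeR). *Retnlb*, a secreted protein of goblet cells, was at 1.40, 75.0 and 1.18 normalised CPM in the ileal and 30.1, 513 and 25.7 in the colonic libraries. The second library of each region was far above the other 2, and no call was made (log2 fold change -2.87, adjusted p = 0.262, edgeR). Without ileal library 2 the value was -7.18 and called (adjusted p = 0.0468, edgeR), and without colonic library 2 it was -0.15 (adjusted p = 0.976, edgeR). Of 31 tested genes of mucin glycosylation and sulfation, 5 were higher in the ileum, 7 were higher in the colon and 19 did not pass the threshold (median -0.31, turning to 0.17 with library size alone). Over all genes tested the shares were 10.7% and 11%. A pair of sialyltransferases went opposite ways: *St6galnac6* was at 0.915, 0.120 and 0.588 normalised CPM in the ileal and 54.9, 62.6 and 54.2 in the colonic libraries (103-fold higher in the colon), and *St3gal4* at 441, 685 and 791 normalised CPM in the ileal and 48.2, 76.2 and 55.6 in the colonic libraries (10.6-fold higher in the ileum), with adjusted p values of 4.23e-09 and 1.2e-07 (edgeR), the log2 fold change of *St6galnac6* going from -6.69 to -7.36 without ileal library 1. *Fut2*, the fucosyltransferase that caps mucosal glycans and responds to microbes, was at 0.915, 68.9 and 42.4 normalised CPM in the ileal and 36.9, 56.3 and 45.0 in the colonic libraries. Ileal library 1 lay far below the other 5 libraries, and no call was made (adjusted p = 0.853, edgeR).

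Epithelial defence genes were divided, with 11 of 32 tested higher in the ileum and 8 higher in the colon (median -0.01, with library size alone 0.50). The corresponding shares of all genes tested were 10.7% and 11%. The antibacterial lectins *Reg3b* and *Reg3g* were at 3730, 7079 and 6485 normalised CPM in the ileal and 195, 266 and 147 in the colonic libraries (28.4-fold higher in the ileum), and at 1255, 3533 and 2673 normalised CPM in the ileal and 42.7, 47.8 and 43.2 in the colonic libraries (55.8-fold), respectively. *Nos2*, inducible nitric oxide synthase, was at 110, 403 and 189 normalised CPM in the ileal and 3.09, 4.18 and 1.42 in the colonic libraries (81.0-fold). Library 1 was the lowest of the ileum for all 3 genes. *Ccl25*, the chemokine that draws lymphocytes to the small intestine, was at 288, 239 and 283 normalised CPM in the ileal and 9.81, 8.35 and 8.20 in the colonic libraries (30.7-fold). The flagellin-sensing inflammasome genes *Naip6* and *Nlrc4* were at 280, 271 and 163 normalised CPM in the ileal and 40.8, 51.6 and 40.5 in the colonic libraries (5.36-fold), and at 65.4, 70.7 and 76.3 normalised CPM in the ileal and 17.2, 19.8 and 21.1 in the colonic libraries (3.65-fold). The largest adjusted p of these 6 genes was 5.18e-06 for *Reg3b* (edgeR). In the colon the leading gene was *Lypd8*, which keeps flagellated bacteria off the surface, at 563, 507 and 530 normalised CPM in the ileal and 1609, 2057 and 1440 in the colonic libraries (3.19-fold, adjusted p = 8.99e-04, edgeR). *Gsdmc4*, of the pore-forming gasdermins, was at 7.32, 2.76 and 0.883 normalised CPM in the ileal and 56.3, 98.3 and 94.2 in the colonic libraries (22.3-fold). The bacterial lipoprotein receptor *Tlr2* was at 0.323, 0.180 and 0.368 normalised CPM in the ileal and 16.2, 13.1 and 10.7 in the colonic libraries (44.9-fold), with adjusted p values of 3.14e-06 and 1.05e-04 (edgeR). The log2 fold change of *Gsdmc4* went from -4.48 to -5.48 without ileal library 1, and that of *Nos2* from 6.34 to 5.70 without ileal library 2.

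All 7 tested genes of antigen presentation by MHC class II, of 10 listed, were higher in the ileum, with a median log2 fold change of 6.17. *Cd74*, the invariant chain, was at 127, 588 and 217 normalised CPM in the ileal and 3.01, 1.98 and 2.78 in the colonic libraries (120-fold). The class II chain *H2-Ab1* was at 68.3, 322 and 124 normalised CPM in the ileal and 3.25, 1.49 and 2.84 in the colonic libraries (67.9-fold). *Ciita*, their master activator, was at 5.33, 16.4 and 5.30 normalised CPM in the ileal and 0, 0.283 and 0.0645 in the colonic libraries (71.9-fold, from 5 colonic counts). The adjusted p values were 4.29e-07, 3.30e-07 and 5.60e-05 (edgeR), and library 2 was the highest of the ileum in each. Without it the log2 fold changes went from 6.90 to 6.05 for *Cd74*, from 6.08 to 5.25 for *H2-Ab1* and from 6.17 to 5.41 for *Ciita*, and for *Ciita* the value was 7.68 without colonic library 2. Beside this, the 15 immune cell markers summed to 8.13, 18.7 and 8.61 normalised CPM in the ileal and 1.62, 2.12 and 3.87 in the colonic libraries, also highest in ileal library 2, against 255, 1196 and 454 and 8.19, 6.02 and 8.33 for the class II genes. Of 10 immune markers tested, 2 were higher in the ileum and 0 were higher in the colon, with a median log2 fold change of 4.14 (1.53 with genes at 0 in one region set to their bounds), and each of the 15 had a count in at least 1 of the 6 libraries. Those higher in the ileum were 5 with library size alone, 3 with DESeq2 and 4 of 5 tested with index D502 alone. Beside the main counts, 10.7% of all genes tested were higher in the ileum and 11% in the colon. *Ptprc*, the gene of the sorted-out CD45, was at 0.700, 4.39 and 0.294 normalised CPM in the ileal and 0.541, 0.920 and 2.07 in the colonic libraries, with overlap (adjusted p = 0.766, edgeR). The part of immune cells in the class II result was not tested.

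Enzymes and pumps for foreign compounds differed gene by gene, with 9 of 45 tested higher in the ileum and 11 higher in the colon (median -0.23, with library size alone 0.10). All genes tested gave 10.7% and 11%. *Cyp3a11*, of the main drug-metabolising P450 family, was at 18.2, 31.0 and 29.1 normalised CPM in the ileal and 0.618, 0.354 and 0.452 in the colonic libraries (54.4-fold higher in the ileum). *Abcg2*, an apical efflux pump, was at 147, 257 and 354 normalised CPM in the ileal and 39.2, 72.1 and 54.0 in the colonic libraries (4.59-fold). In the colon *Cyp2c55* was at 1731, 1791 and 500 normalised CPM against 119, 51.0 and 18.5 in the ileum (21.3-fold), *Cyp2d34* at 31.8, 49.3 and 24.5 against 0.108, 0.240 and 0.441 (135-fold), *Sult1a1* at 62.2, 49.0 and 96.1 against 1.29, 0.0601 and 0.221 (123-fold) and the glutathione transferase *Gstm1* at 20.5, 19.3 and 15.8 against 1.35, 1.2 and 0.294 (18.9-fold). The third library was the lowest of both regions for *Cyp2c55*, yet in all 6 genes the regions kept apart, and no adjusted p exceeded 7.49e-05 (edgeR). Without ileal library 1 the log2 fold change went from -4.41 to -5.27 for *Cyp2c55* and from -6.95 to -8.93 for *Sult1a1*. Of 18 tested claudin and junction genes, 6 were higher in the ileum, 2 were higher in the colon and 10 did not pass the threshold (median 0.53). Among all genes tested 10.7% and 11% were called. *Cldn15*, which forms sodium pores needed for nutrient uptake, was at 48.2, 38.6 and 49.7 normalised CPM in the ileal and 19.2, 20.7 and 24 in the colonic libraries (2.14-fold higher in the ileum, adjusted p = 0.00263, edgeR). *Cldn8*, a sealing claudin of the distal colon, was at 1.56, 0 and 0.736 normalised CPM in the ileal and 18.9, 13.4 and 22.3 in the colonic libraries (23.2-fold higher in the colon, adjusted p = 1.08e-04, edgeR), its log2 fold change going from -4.53 to -5.68 without ileal library 1.

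**Figure D4:**
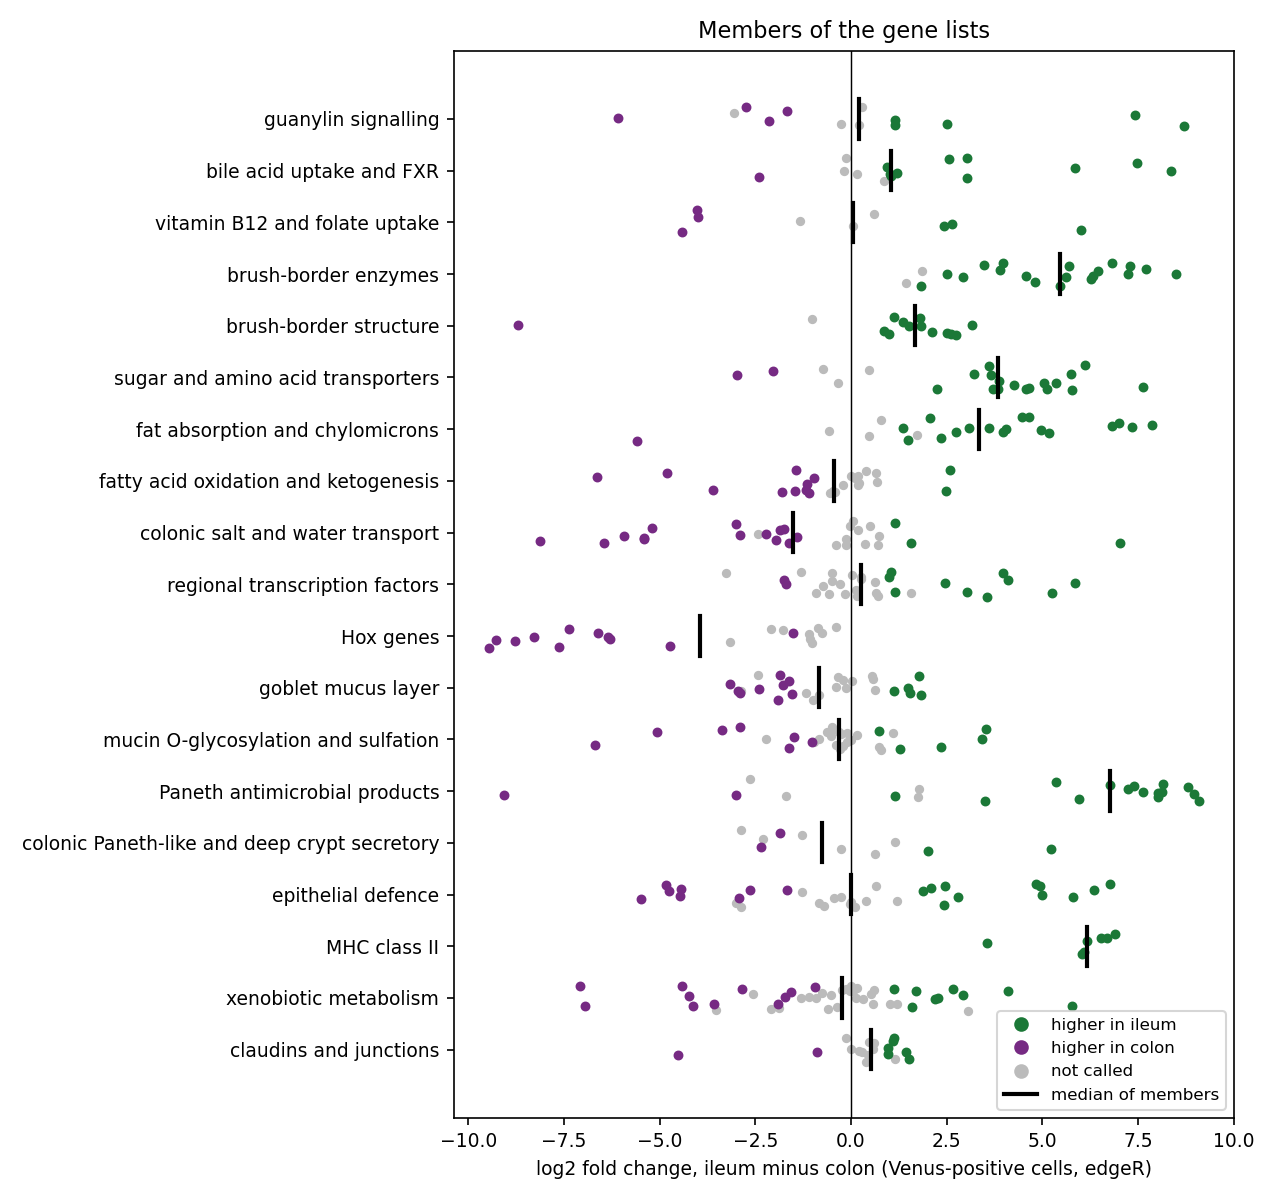
Log2 fold change (ileum minus colon, x axis) of each tested gene of the 19 gene lists (lines) in Venus-positive cells, coloured by the edgeR call and offset vertically only for legibility, with a bar at each list's median. Brush-border enzymes lie to the right (median 5.45), Hox genes to the left (median -3.94), and the median of all genes tested is -0.14.

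Markers of the cell types that such a sort could hold were counted next. Enterocyte markers had 13 higher in the ileum and 0 higher in the colon of 13 tested (median log2 fold change 2.73), and colonocyte markers 1 higher in the ileum and 7 higher in the colon of 10 tested (median -2.59). The colonocyte marker higher in the ileum was *Krt20*, a keratin of the mature surface, at 683, 1409 and 1658 normalised CPM in the ileal and 367, 486 and 361 in the colonic libraries (3.09-fold, adjusted p = 0.00118, edgeR). Goblet markers had 3 higher in the ileum and 2 higher in the colon of 8 tested (median 0.32), and Paneth markers 7 higher in the ileum and 0 higher in the colon of 8 tested (median 7.71). The goblet median was -0.04 without ileal library 1, with 2 genes called in each direction, and 0.02 with index D502 alone. Stem and proliferation markers had 2 higher in the ileum and 2 higher in the colon of 13 tested, beside shares of 10.7% and 11% over all genes tested. Those higher in the ileum were *Olfm4*, a stem cell gene of the small intestine, at 179, 88.1 and 212 normalised CPM in the ileal and 3.32, 3.54 and 5.87 in the colonic libraries (37.4-fold), and the Wnt target *Axin2*, at 57.5, 95.8 and 52.1 normalised CPM in the ileal and 14.4, 15.7 and 12.1 in the colonic libraries (4.86-fold), with adjusted p values of 1.41e-06 and 1.44e-04 (edgeR). Higher in the colon were *Sox4* and *Mki67*. The transcription factor *Sox4* was at 2.21, 2.10 and 1.47 normalised CPM in the ileal and 8.73, 8.99 and 7.75 in the colonic libraries (4.36-fold). The proliferation antigen *Mki67* was at 18.9, 16.2 and 4.63 normalised CPM in the ileal and 30.1, 30.0 and 30.1 in the colonic libraries (2.26-fold, adjusted p = 0.0459, edgeR). The *Mki67* call was lost with library size alone (log2 fold change -0.67) and without each library but ileal library 1 (-1.52 to -0.78 over single libraries left out). In the Venus-negative cells *Olfm4* was at 1679, 821 and 3506 normalised CPM in the ileum, above all 3 positive libraries, and at 6.11, 5.93 and 14.2 in the colon.

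Enteroendocrine markers had 3 higher in the ileum and 3 higher in the colon of 13 tested (median -0.07). The background shares were 10.7% and 11% of all genes tested. The granule proteins *Chga* and *Chgb* were at 6.46, 9.13 and 5.0 normalised CPM in the ileal and 48.1, 104 and 44.1 in the colonic libraries (9.48-fold higher in the colon), and at 13.9, 23.4 and 5.22 normalised CPM in the ileal and 85.7, 171 and 91.2 in the colonic libraries (8.16-fold). *Tph1*, which makes serotonin, was at 1.29, 1.5 and 0.809 normalised CPM in the ileal and 6.88, 16.0 and 12.7 in the colonic libraries (9.72-fold). Colonic library 2 was the highest in the 3 genes, the largest adjusted p being 1.91e-04 (edgeR). All 3 were higher in the Venus-negative cells of the same region. There *Chga* was at 115, 118 and 42.7 normalised CPM in ileal and 251, 190 and 123 in colonic libraries. *Chgb* was at 245, 287 and 86.6 and at 519, 367 and 279, and *Tph1* at 10.5, 15.4 and 7.76 and at 39.4, 35.4 and 46.7. The ileal peptide neurotensin, *Nts*, was at 36.3, 56.6 and 54.2 normalised CPM in the ileal and 10.4, 14.2 and 5.74 in the colonic libraries (4.85-fold higher in the ileum, adjusted p = 0.00578, edgeR). Negative cells had 24.4, 71.7 and 67.0 normalised CPM of *Nts* in ileal and 0.959, 5.57 and 0.510 in colonic libraries, the latter below the positive ones. Tuft cell markers had 0 higher in the ileum and 2 higher in the colon of 7 tested, among them *Dclk1* at 1.29, 1.62 and 1.03 normalised CPM in the ileal and 5.02, 6.58 and 7.88 in the colonic libraries (4.90-fold higher in the colon, adjusted p = 0.00473, edgeR). Negative cells had 11.1, 14.4 and 10.9 normalised CPM of *Dclk1* in ileal and 13.3, 18.2 and 6.21 in colonic libraries, the latter overlapping the positive ones. Stromal and endothelial markers summed to 0.861, 3.61 and 1.84 normalised CPM in ileal and 2.40, 3.61 and 3.94 in colonic libraries. Of 7 tested, 0 passed the threshold with edgeR and 0 with DESeq2, 1 having an unadjusted edgeR p under 0.05. Called higher in the ileum was 1 of the 7 with library size alone and 1 of 2 tested with index D502 alone.

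Some genes had no count at all in one region. Only protein-coding genes that are not mitochondrial were counted here. Of those called higher in the ileum, 34 had 0 counts in every colonic library, and of those called higher in the colon, 84 had 0 counts in every ileal library. For such genes only bounds of the fold can be given, against a floor of 3 counts per library. In the ileum the largest bounds were those of the defensin *Defa34* (31.2, 10.8 and 21.7 normalised CPM, at least 91.5-fold higher), the secretory pathway pseudokinase *Fam20a* (21.5, 16.4 and 13.5, at least 74.0-fold higher), *Defa35* (at least 28.9-fold higher), *Gm9817* (at least 25.7-fold higher), the antiprotease *Serpina1b* (at least 23.9-fold higher) and *Nat8f5* (at least 22.7-fold higher). In the colon they were those of *Sycn*, a zymogen granule protein known from the pancreas, at 24.2, 13.4 and 27.9 normalised CPM (at least 99.1-fold higher), *Ceacam12* at 6.10, 23.6 and 17.4 (at least 71.2-fold higher), the glutamate receptor subunit *Grin3a* at 5.18, 11 and 6.78 (at least 34.7-fold higher), *Hoxa7*, *Nacad* at 5.80, 5.88 and 4.39 (at least 24.3-fold higher) and *Hoxa3*. These 12 were taken from genes called with edgeR, so their calls are no support, and DESeq2 did not call *Grin3a*.

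Whether the regional difference was unequal between Venus-positive and Venus-negative cells was tested by its interaction with the sort. The interaction is the difference between ileum and colon in positive cells minus that in negative cells, so a call can also rest on the negative cells. The 6 libraries of negative cells enter this contrast, and positive and negative cells may share mice. It passed the threshold for 419 genes (2.79%), 229 (1.52%) with a difference further towards the ileum in positive cells and 190 (1.26%) further towards the colon (edgeR interaction contrast), and 384 of the 419 were also called between the positive cells. The median interaction of all genes tested was -0.27. DESeq2 called 510 and 370. Without ileal positive library 1 the edgeR counts were 290 and 370, and over all single libraries left out they ran from 106 to 290 and from 73 to 370. Absorptive genes were among the first group: 9 of 21 brush-border enzymes, 10 of 22 sugar and amino acid transporters and 7 of 22 fat absorption genes. The medians of their regional differences were 5.45, 3.85 and 3.34 in positive cells and 2.72, 1.40 and 1.40 in negative cells. Other lists had hardly any interaction: 0 members towards the ileum and 1 towards the colon for bile acids, 0 and 0 for MHC class II, and 0 and 1 for Hox genes. The medians of these lists were 1.04, 6.17 and -3.94 in positive cells and 1.12, 5.99 and -2.34 in negative cells. *Dpp4* was at 41.6, 64.0 and 87.9 normalised CPM in the ileal and 34.0, 22.2 and 37.1 in the colonic negative libraries, a log2 fold change of 1.05 against 5.61 in positive cells (interaction 4.56, adjusted p = 1.92e-06, edgeR).

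Goblet cell markers passed the interaction in 5 of 8 towards the ileum, beside 1.52% of all genes tested, with a median regional difference of 0.32 in positive and -2.17 in negative cells. *Muc2*, whose positive libraries overlapped between the regions, was at 8.46, 16.7 and 15.2 normalised CPM in ileal and 126, 80.4 and 58.9 in colonic negative cells (interaction 2.32, adjusted p = 0.0251, edgeR), and *Clca1* at 32.8, 50.3 and 49.2 and 287, 519 and 180 (interaction 3.51, adjusted p = 0.00129, edgeR). In both genes the negative cells of the colon held more of the transcript than those of the ileum. For the hormone genes no interaction was called, at 0.17 for *Guca2a* (adjusted p = 0.892, edgeR), with 23.5, 22.5 and 32.6 normalised CPM in ileal and 69.5, 94.3 and 120 in colonic negative cells, and at 1.04 for *Guca2b* (adjusted p = 0.196, edgeR). On the colonic side, the water channel *Aqp4* was at 29.6, 26.8 and 42.7 normalised CPM in ileal and 82.7, 91.0 and 103 in colonic negative cells, so that the ileal positive cells, at 1.83, 1.86 and 2.21, were the group apart (interaction -3.94, adjusted p = 1.84e-05, edgeR). *Adra2a*, an adrenergic receptor that favours salt absorption, was at 1.83, 1.02 and 0.809 normalised CPM in the ileal and 24.3, 28.2 and 18.9 in the colonic libraries in positive cells, and at 7.71, 7.79 and 5.99 and 3.36, 6.45 and 6.46 in negative cells (interaction -4.66, adjusted p = 5.64e-05, edgeR). *Bmp3*, a BMP ligand, was at 11.6, 0.961 and 6.18 normalised CPM in the ileal and 125, 84.5 and 69.6 in the colonic libraries in positive cells, and at 33.0, 21.8 and 19.6 and 29.7, 16.9 and 18.1 in negative cells (interaction -4.09, adjusted p = 0.00898, edgeR). In these 2 genes the negative cells of the regions overlapped. *Plet1*, a surface protein of the colonic epithelium, was higher in the colon in either sort, at 0.0825, 0.564 and 0.0554 in ileal and 5.87, 6.81 and 2.72 in colonic negative cells (interaction -3.99, adjusted p = 0.0211, edgeR), and its interaction was -2.26 without ileal negative library 2, past the threshold no longer.

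**Figure D5:**
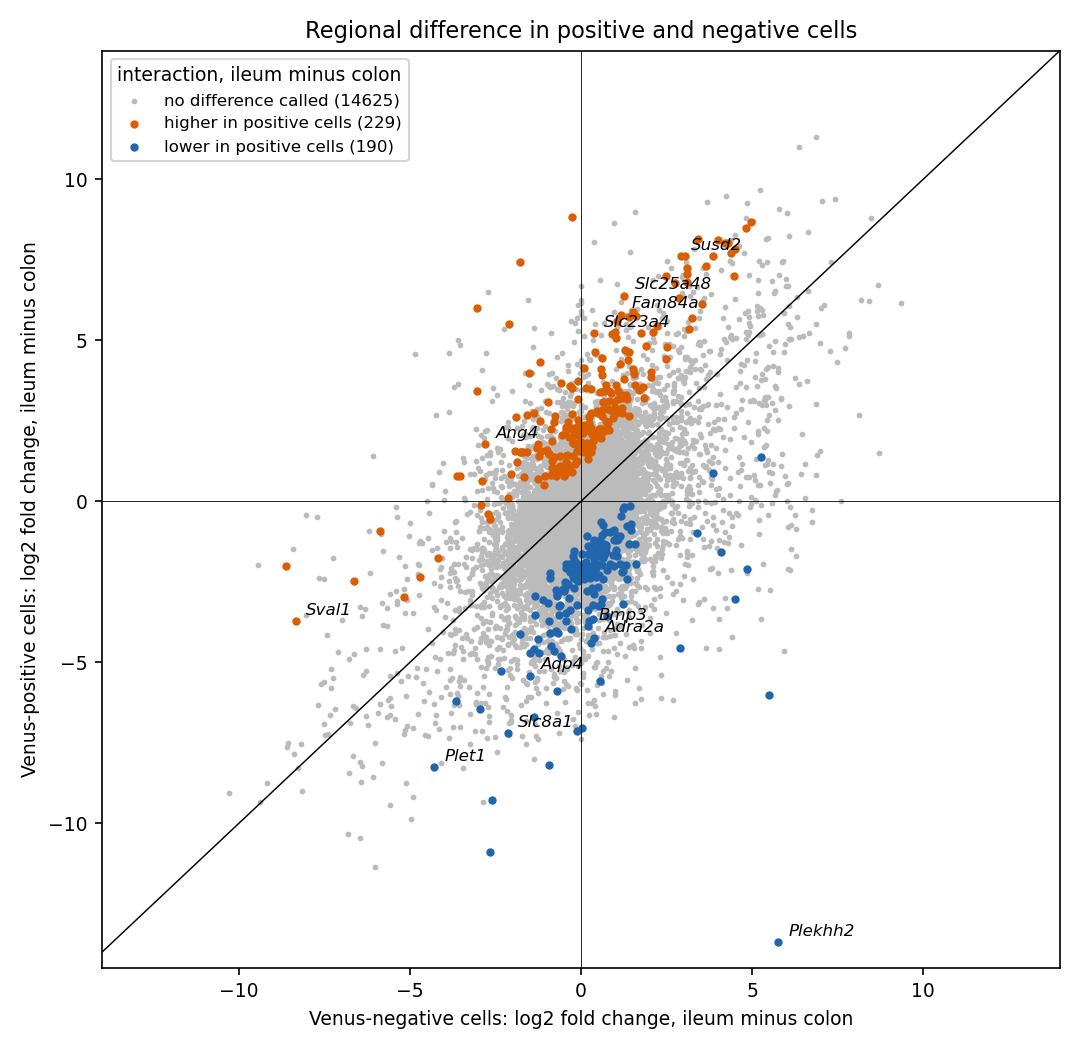
Log2 fold change between ileum and colon in Venus-negative (x axis) and Venus-positive cells (y axis) for each tested gene, with genes past an adjusted p of 0.05 for the interaction (edgeR) coloured. The 229 genes above the diagonal include *Fam84a* (1.17 in negative and 5.80 in positive cells), and the 190 below it include *Aqp4* (-1.48 and -5.42).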

How the data were processed

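RNA of Venus-positive and Venus-negative cells from 4 gut segments was sequenced in 24 libraries, of which the 12 of ileum and colon were compared here. The deposited values were raw read counts per gene, made by the authors from single-end reads. The submitters' processing notes name CASAVA, STAR 2.5.1 and GRCm38, and the strand setting and annotation behind the counts are not given in the sources used here. Rows that name no gene were left out, and names and biotypes came from GENCODE M21 (53360 of 53465 genes). edgeR 4.0.16 (R 4.3.3) was run with filterByExpr (minimum count 10, total 15; 15044 genes tested), TMM factors and a quasi-likelihood fit over the 8 groups (common dispersion 0.185). Benjamini-Hochberg adjusted p values covered all genes tested, with a threshold of 0.05. The interaction contrasted the regional difference of positive with that of negative cells. Standard errors were derived from the edgeR test, as the absolute log2 fold change divided by the square root of its F statistic. Bounds of folds used a floor of 3 counts per library. Named genes were protein-coding and not mitochondrial. They were the 12 largest folds in each direction (no overlap, mean of at least 20 CPM in the higher and at least 10 counts in the lower group), the 6 highest mean levels among genes 1 or more apart on the log2 scale and without overlap, the 6 highest with 0 counts in the other region, members of the lists as examples, and the 6 largest interactions in each direction (mean of at least 20 CPM in at least 1 of the 4 groups), except a few genes that are not reported here. The 19 gene lists and 9 marker lists, like the comparison, were chosen with earlier results of these data known, and lists are described by counts and medians only. Promoter windows were from RefSeq on GRCm38.p6. Alternatives were DESeq2 1.42.0, other scalings, filters and thresholds, protein-coding genes alone, fewer groups in the fit, i5 index D502 alone or as a covariate, and each library left out. Tables and figures were made with Python 3.11.15, scipy 1.17.1 and matplotlib 3.10.9.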

Additional observations from a re-analysis of the deposited data

Results flagged for a closer look

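Results are given here because a test of the difference itself, the edgeR interaction at an adjusted p of 0.05, found the ileum-to-colon difference of Venus-positive cells unequal to that of Venus-negative cells. The difference was higher in positive cells for 229 genes and lower for 190, and the 12 genes below had the largest interactions by the rule for named genes. Groups of 3 libraries are too small for the check of single outlying samples that was planned.

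*Slc25a48*, a mitochondrial carrier, had an interaction of 5.13 (log2), with 34.2, 77.5 and 46.5 normalised CPM in ileal and 0.386, 0.212 and 1.23 in colonic positive cells, against 2.35, 5.78 and 3.16 and 2.76, 1.25 and 0.850 in negative cells. The regions were far apart in positive cells alone. *Slc23a4*, a nucleobase transporter, had an interaction of 4.85, and its positive libraries overlapped, at 0.215, 39.8 and 27.3 normalised CPM in ileal and 1.0, 0.425 and 0.387 in colonic cells. *Susd2*, a membrane protein, had an interaction of 4.71, with 15.9, 53.5 and 104 normalised CPM in ileal positive cells and at most 3.60 in each of the other 9 libraries. Its call was lost with the compared groups alone (4.83) and without any one of 8 libraries, with values of 3.35 to 4.96. *Fam84a* had an interaction of 4.63, with 26.9, 86.2 and 49.3 normalised CPM in ileal positive cells and at most 6.17 in each of the other 9 libraries.

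*Sval1* had an interaction of 4.61, with 0, 0 and 0.166 normalised CPM in negative ileal cells against 2.37, 1.5 and 0.809 in positive ileal cells. The colon was higher in either sort, at 8.27, 11.7 and 43.2 in positive and 9.47, 24 and 17.7 in negative cells, so that the interaction marks a smaller colonic excess in positive cells. Its call was lost with index D502 alone (3.73) and without Colon_positive 1 (4.21), Ileum_negative 1 (4.05) or Ileum_negative 2 (3.96). *Ang4*, the antimicrobial ribonuclease, had an interaction of 4.59, which was 1.75 and not called without the second negative library of the colon, at 234 normalised CPM against 18.8 and 4.25. It was also lost with the compared groups alone (4.69), with index D502 alone (4.86) and without any one of 8 further libraries (4.11 to 4.88).

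*Plekhh2* had an interaction of -19.48 that rested on single libraries. Its normalised CPM were 0, 0 and 0.0736 in ileal and 0.618, 1.98 and 1160 in colonic positive cells, and 0.371, 222 and 896 in ileal and 16.3, 2.12 and 2.55 in colonic negative cells. Without Colon_positive 3 it was -11.30 and not called. *Slc8a1*, a sodium-calcium exchanger, had an interaction of -5.06, *Adra2a* of -4.66, *Bmp3* of -4.09 and *Aqp4* of -3.94, and these calls were kept in every alternative fit at an adjusted p of 0.05. *Plet1*, a surface protein, had an interaction of -3.99, which was -2.26 and not called without Ileum_negative 2.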

How the results depend on the processing

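The counts moved with the scaling, the threshold and the single library left out, and those of interactions also with the method. With library size alone in place of TMM, 2825 genes were higher in the ileum and 763 lower, the median of all genes moving from -0.14 to 0.37, and interactions numbered 152 and 107 (higher and lower in positive cells). An adjusted p of 0.01 left 1014 and 811 genes, and 62 and 28 interactions. Leaving out 1 library gave 1085 to 1573 genes higher in the ileum and 988 to 1681 higher in the colon, where the count was 1026 without Colon_positive 3, 999 without Ileum_positive 2 and 988 without Ileum_positive 3. Interactions ranged from 106 (without Ileum_negative 1) to 290 (without Ileum_positive 1) and from 73 (without Ileum_positive 3) to 370 (without Ileum_positive 1). DESeq2 called 510 and 370 interactions, no filter on low counts gave 346 that were higher in positive cells, and the i5 index as a covariate gave 288 that were lower. The cause of these moves was not tested. Of the 140 called genes among the 148 named for the regional comparison, 133 kept their call in every alternative fit and none reversed. The others were *Fcgbp* (1.32 without Colon_positive 2, 1.2 without Ileum_positive 1), *Guca2b* (0.84 without Ileum_positive 3), *Nr1h4* (0.88 without Colon_positive 3), *Slc9a3r2* (-5.59 without Ileum_positive 2, -5.67 without Ileum_positive 3), *Grin3a* (-9.39 with DESeq2), *Kit* (-1.58 without Ileum_positive 3) and *Mki67* (-0.67 with library size alone, -1.18, -1.22 and -1.18 without each colonic library, -1.35 and -0.78 without Ileum_positive 2 and 3). Among the 12 genes named for the interaction 7 kept their call in every alternative fit. Single genes were not followed at other thresholds. Of genes that were not called, *Muc2* turned to 0.14 with library size alone, *Fut2* to 0.16 with index D502 alone, 0.17 with library size alone and 0.28 without Ileum_positive 1 (-1.09 to 0.28 leaving out each library), and *Ptprc* to -1.22 without Ileum_positive 2 (-1.22 to 1.28). Library size alone also turned the list medians of fatty acid oxidation (0.04), mucin glycosylation (0.17), epithelial defence (0.50), xenobiotic metabolism (0.10) and enteroendocrine markers (0.47). The epithelial defence median was further 0.09 with the 12 positive libraries alone, 0.06 with at least 10 counts in every library of 1 group, 0.13 with the compared groups alone and 0.01 with the index covariate. Members higher in the ileum were 6 in place of 3 for colonic salt and water transport and 10 in place of 6 for claudins and junctions with library size alone. Members higher in the colon were 7 in place of 11 for xenobiotic metabolism with library size alone, 11 in place of 7 for mucin glycosylation with the compared groups alone, and 5 in place of 2 for regional transcription factors with index D502 alone. Leaving out 1 library also turned list medians, which then ranged from -0.31 (without Ileum_positive 1) to 0.22 for guanylin signalling, from -0.35 (without Colon_positive 3) to 0.61 for vitamin B12 and folate uptake, from -0.18 to 0.25 (without Colon_positive 3) for epithelial defence, from -0.04 (without Ileum_positive 1) to 0.51 for goblet markers and from -0.43 to 0.19 (without Colon_positive 2) for enteroendocrine markers. For stromal markers they ranged from -2.69 to 0.00 (without Colon_positive 3), with 1.69 for index D502 alone. Index D501 holds 1 library per group and gives no test of its own. No paired analysis was made, because the labels neither number the libraries nor name the mouse of each. The replicate numbers used here follow the order of deposit, and whether libraries of the same number share a mouse was not tested.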

Other observations

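*Retnlb*, a goblet cell product, was at 1.40, 75.0 and 1.18 normalised CPM in ileal and 30.1, 513 and 25.7 in colonic positive cells, and at 0.124, 4.69 and 0.277 and 3.00, 249 and 2.64 in negative cells, the second library being the highest in each of the 4 groups. *Ang4* was highest in the second library of both colonic groups, at 177 normalised CPM in the positive group and 234 in the negative one, but not in the ileal groups, at 392, 206 and 232 in positive and 16.8, 10.5 and 9.37 in negative cells. The labels do not say whether libraries of the same number share a mouse. Both genes were chosen here after their values were seen.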
